A study of Homo sapiens with 4 samples.

Results

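The baseline transcriptome of serum-starved, untreated HEK293 cells was described from 2 of the 4 arrays of a study of lysophosphatidic acid (LPA). HEK293 is an established human embryonic kidney line that carries adenoviral early-region DNA. Cells were grown in DMEM with 10% fetal bovine serum and then kept overnight in medium without serum. The 2 arrays used here have "none" as their treatment and the letters Vc in their titles, which the labels do not explain. The other 2 arrays hold cells given 1 µM LPA for 2 h, and no contrast with them is made. The labels do not say that replicates 1 and 2 came from separate cultures, so the spread between them may be technical. Total RNA was hybridised to an Affymetrix array of 54675 probe sets, and 19775 genes had at least 1 probe set that lists exactly 1 symbol. Of these probe sets the brightest on the untreated arrays stood for the gene. Genes were then ordered by their mean log2(signal + 1).

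Signals are MAS5 intensities in arbitrary array units. Different probe sets bind their targets with different efficiency, so the order is an order of probe-set brightness and not of transcript amount. No detection calls were used, and a background bound took their place. On each array it was the 95th percentile of the signals of 82 olfactory receptor genes, a family of odorant sensors of the nasal epithelium. The bound was 90.7 on replicate 1 and 88.9 on replicate 2, against olfactory receptor medians of 23.2 and 36.5. A gene above the bound on both arrays is called detected below. A gene that is not detected may still be transcribed, and values under the bound have no order.

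A proliferating cell devotes much of its messenger RNA to making ribosomes, and the mRNAs of nearly all ribosomal proteins begin with a cytosine followed by a run of pyrimidines, the 5′ terminal oligopyrimidine (TOP) motif through which mTOR signalling controls their translation. The promoters of such widely used genes mostly lie in CpG islands, while many promoters of tissue-specific genes are poor in CpG. The adenoviral early proteins of HEK293 bind the retinoblastoma family, which holds back the cell cycle. The cell from which the line arose is not settled, and both kidney and neural or adrenal features have been discussed for it.

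The start sites below are picked examples of a start that is counted in the results. They are RefSeq sequences of GRCh38.p14, read 5′ to 3′ on the strand of the gene, with 20 bases before and 10 bases after the most upstream listed start. Capitals mark the first 5 transcribed bases. The first 6 genes were picked from the 30 brightest, and their annotated transcripts begin with C and 4 pyrimidines. Most bright genes have another start. This one was found for 34 of 48 ribosomal protein genes and 16.5% of genes of 10000 or more. GAPDH is a bright gene with another start, and FGB, the fibrinogen beta chain of hepatocytes, was not detected.
RPS23, chr5:82278345-82278374, minus strand: ctccttcctgcggtgcttctCTCTTtcgct
RPS19, chr19:41860235-41860264, plus strand: gcccgggaaaccccgtcgttCCCTTtcccc
RPL37A, chr2:216498824-216498853, plus strand: cctgcgcaccgcgtctcttcCTTTCtgggc
RPS6, chr9:19380227-19380256, minus strand: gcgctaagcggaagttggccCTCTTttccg
EEF1A1, chr6:73521023-73521052, minus strand: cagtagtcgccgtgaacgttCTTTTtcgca
TPT1, chr13:45341174-45341203, minus strand: tggggagcggctgagtcggcCTTTTccgcc
GAPDH, chr12:6535244-6535273, plus strand: tgcgcagcgggtgcatccctGTCCGgatgc
FGB, chr4:154562960-154562989, plus strand: tcattcctagcagaggactcAGATAtatat

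In all, 10871 of 19775 genes (55.0%) were detected, 7434 (37.6%) lay below the bound on both arrays and 1470 (7.43%) lay above it on 1 array only. This share of 55.0% is the background against which each count below is to be read. It rose with the number of probe sets from which the brightest was taken, from 37.5% of 9252 genes with 1 probe set to 82.7% of 2730 genes with 4 or more. Of the 7397 detected genes with more than 1 probe set, 2791 (37.7%) had all of them above the bound. Of the detected genes, 5799 had a mean signal under 1000, 4446 between 1000 and 10000, and 626 of 10000 or more. The brightest 1000 genes held 58.7% of the summed signal, and the brightest 30 held 7.52%.

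**Figure D1:**
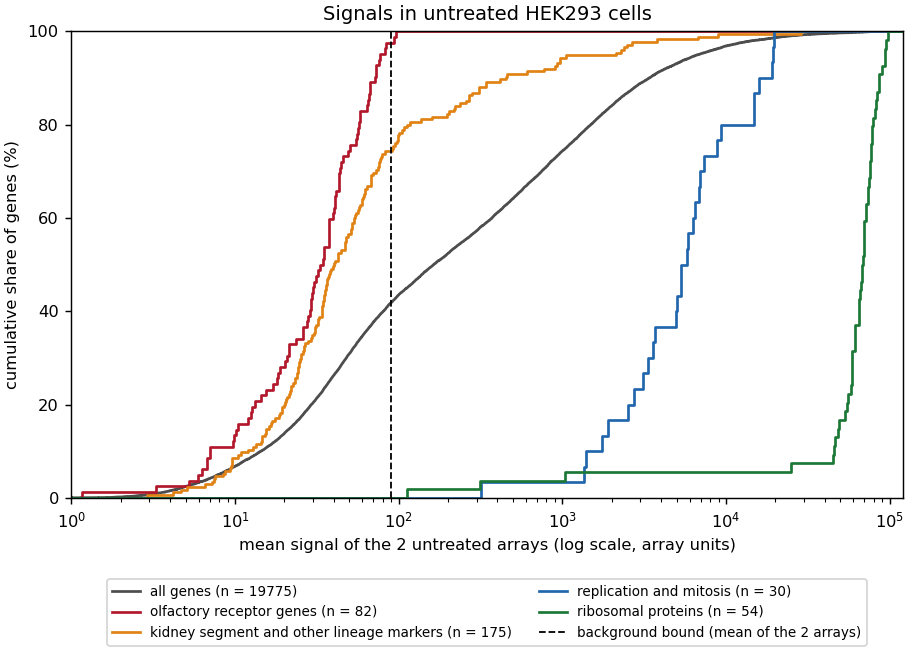
Cumulative share of genes (%) against the mean signal of the 2 untreated arrays (log axis, array units) for all 19775 genes and for 4 gene groups, with the mean background bound as a dashed line. Ribosomal protein genes sit almost entirely at the right end, replication and mitosis genes lie mostly between 1000 and 10000, and most kidney segment and other lineage markers lie to the left of the bound with the olfactory receptors.

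The 2 arrays gave closely similar values for bright genes and divergent ones for dim genes. Across genes, which are not independent replicates, Pearson's r of the log2 signals was 0.937 for all genes and 0.978 for detected genes, and 92.6% of genes lay on the same side of the bound on both arrays. The median standard deviation (SD, n = 2) of a gene's log2 signal was 0.09 for genes of 10000 or more, 0.15 between 1000 and 10000, 0.21 for detected genes under 1000 and 0.66 for genes below the bound. Among detected genes 307 (2.82%) differed by at least 2-fold between the arrays. The 3 examples given here were chosen after their values were seen. HIPK2, a nuclear kinase, read 2707 on replicate 1 and 590 on replicate 2, the widest gap among them. CHAC1, a glutathione-degrading enzyme, read 122 and 393, and ANKRD37, an ankyrin repeat protein, read 351 and 1144. Such genes have no settled level in these data.

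**Figure D2:**
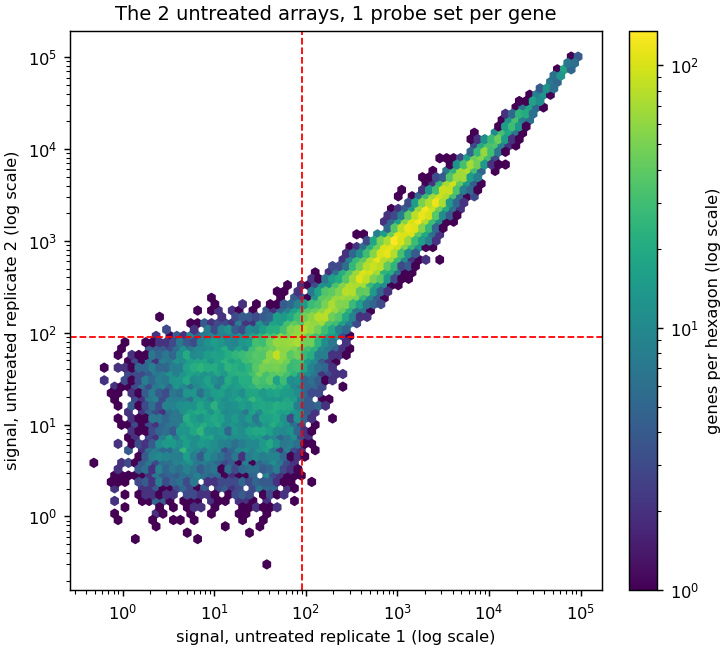
Signal of each of 19775 genes on untreated replicate 1 (x axis) and replicate 2 (y axis), both log axes in array units, coloured by the number of genes per hexagon. Red dashed lines mark the 2 background bounds. Above both bounds the genes lie along the diagonal, and below them the values scatter without order.

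The brightest signals came from the protein synthesis machinery. Of the 30 brightest genes, 23 encode cytosolic ribosomal proteins and 1, EEF1A1, the elongation factor that brings aminoacyl-tRNA to the ribosome. RPS23, of the small subunit, read 93754 and 101445. RPS19 read 92516 and 98789, and RPL37A, of the large subunit, read 88562 and 99122. RPS10 read 89645 and 96528, and RPS6, the ribosomal protein phosphorylated downstream of mTOR, read 84437 and 95224. All 5 were higher on replicate 2, as were 49 of the 54 ribosomal protein genes measured, with a median log2 difference of 0.11 between the arrays. EEF1A1 read 69166 and 76433. The remaining ribosomal protein genes among the 30 were RPL7, RPS16, RPL31, RPS4X, RPL24, RPL41, RPL10A, RPL39, RPS12, RPS14, RPL30, RPS18, RPS27, RPLP1, RPL9, RPS21, RPL27 and RPS15, with single signals from 68347 (RPS15) to 91082 (RPS16).

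The other 6 of the 30 were COX2, TPT1, HUWE1, COX1, NACA and HSPD1. COX2 and COX1 are here the cytochrome c oxidase subunits encoded in the mitochondrial genome, and they read 85982 and 88094 and 78110 and 73506. TPT1, the translationally controlled tumour protein, is itself a TOP mRNA, and it read 75104 and 88228. NACA, the alpha subunit of the nascent polypeptide-associated complex at the ribosome exit tunnel, read 71121 and 75474. HSPD1, the mitochondrial chaperonin HSP60, read 75569 and 70506. HUWE1, a ubiquitin ligase, rests on a probe set of the kind marked as cross-hybridising, which read 75765 and 82993. Its next brightest probe set read 3417 and 2825, another read 412 and 219, and the remaining pair lay below the bound on both arrays. The place of HUWE1 in the order is therefore that of 1 probe set and not of the gene.

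Ribosomal proteins made up 50 of the 100 brightest genes, beside 6 translation factors, 3 glycolysis genes and 2 tubulins. All 54 measured ribosomal protein genes were detected, with a median signal of 68087. The other 26 of 80 had no probe set with a single symbol and were not analysed here, 15 of them because their probe sets list several symbols. A few of those measured were dim: RPL27A read 1122 and 965, RPLP2 read 266 and 366, and RPL36A read 91.8 and 132. The count of 50 depended on the choice of probe set. It was 29 with the mean of all probe sets of a gene, and 11 when probe sets marked as shared or cross-hybridising were left out, which left 30 ribosomal protein genes measured. Restricting the order to genes with 1 probe set gave 19.

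Close paralogs of ribosomal proteins, several of them tissue-restricted, were detected for 6 of 7 measured. RPL22L1, the paralog of RPL22, read 39590 and 41711. RPL7L1 read 22310 and 18642, RPL26L1 read 14817 and 15632, and RPS27L, the paralog of RPS27, read 13844 and 14466. RPL3L, the paralog of striated muscle, read 35.6 and 51.4 and was not detected. Hybridisation may not separate near-identical copies, so paralog values are uncertain.

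Translation factors were detected for 29 of 31 measured. EIF1, which helps to select the start codon, read 56024 and 58599. EEF2, the translocation factor, read 53168 and 61486. EIF3E and EIF3L, subunits of the largest initiation factor, read 44460 and 50611 and 44224 and 50363. The 2 that lay above the bound on 1 array only were EIF3C (124 and 61.7) and EIF4A2 (38.8 and 198), each measured by a single probe set.

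All 15 glycolysis genes were detected, and 7 of the 8 that remained without shared or cross-hybridising probe sets, against 47.6% of all genes. GAPDH read 59949 and 63272, and LDHB and LDHA, the subunits of lactate dehydrogenase, read 57899 and 58568 and 53879 and 62754. ENO1, the general enolase, read 34656 and 35009. All 13 measured subunits of the proteasome core were detected, led by PSMB4 (29657 and 28419), PSMB1 (30127 and 26192), PSMA1 (24784 and 25124) and PSMA4 (24184 and 24062). The interferon-inducible subunits PSMB8, which read 4.25 and 3.84, and PSMB9, which read 27.6 and 75.6, were not detected, while PSMB10 read 870 and 962 and the activator subunit PSME1 read 2384 and 3477. The 7 measured subunits of the chaperonin CCT, which folds actin and tubulin, were detected, with CCT8 at 30928 and 34162, CCT4 at 30217 and 30570, CCT2 at 28541 and 29646 and CCT3 at 19458 and 20371.

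For enzymes that have both a general and a tissue-restricted isoform, the general isoforms were detected in 16 of 16 cases and the tissue isoforms in 7 of 17. Without shared or cross-hybridising probe sets the counts were 9 of 11 and 6 of 13, against 47.6% of all genes. Among the general ones, SLC25A5, an ADP/ATP carrier of mitochondria, read 40388 and 43830, and CKB, the brain-type creatine kinase, read 13168 and 13940. The brightest tissue isoforms were SLC25A4, the ADP/ATP carrier of heart and muscle, at 1872 and 2045, and LDHC, the testis lactate dehydrogenase, at 649 and 623. EEF1A2, the elongation factor isoform of neurons and muscle, read 462 and 795, and ALDOC, the brain aldolase, read 245 and 386. CKM, the muscle creatine kinase, read 11.6 and 52.6. PKM, the pyruvate kinase of most dividing cells, read 901 and 1019 on its brighter probe set. Of 19 actins and tubulins 15 were detected, led by TUBA1B (53029 and 51850), TUBA1C (40909 and 42645), ACTB (24818 and 24854) and TUBB (21754 and 21058). Without shared or cross-hybridising probe sets 9 of 14 actins and tubulins were detected, against 47.6% of all genes. ACTB probe sets near the 3′ end read 24106 and 23172 against 1804 and 1836 at the 5′ end, for the same gene on the same arrays. A gene whose probe sets lie far from the 3′ end may therefore be missed by the bound. How far this affects the genes called not detected was not tested.

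Cells kept overnight without serum still gave signal for every measured gene of DNA replication and mitosis on its brightest probe set. All 30 were detected, with a median signal of 5549. Without shared or cross-hybridising probe sets 21 of 23 were detected, against 47.6% of all genes. PCNA, the sliding clamp of DNA polymerase, read 20322 and 18655. RRM1, the large subunit of ribonucleotide reductase, read 19185 and 19907, and CDK1, the kinase that drives entry into mitosis, read 18902 and 19329. MCM6, of the replicative helicase, read 17036 and 14685. On both arrays these 4 lay more than 100 times above the bound. PLK1, a mitotic kinase, was the dimmest at 337 and 301. No array of cells kept in serum is among those used here, so an effect of serum withdrawal was not measured.

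The genes of the axis that adenoviral early proteins act on were all detected, 17 of 17 measured. CDKN2A, which encodes the CDK4 inhibitor p16 and the MDM2 inhibitor p14ARF, read 8265 and 8006, a second CDKN2A probe set read 4432 and 4172, and the third read 7.05 and 25.8 and was not detected. TFDP1, the partner of E2F factors, read 4860 and 4427, and MDM2, a ubiquitin ligase, read 3549 and 4089. RB1, the retinoblastoma protein, read 2328 and 2516, and E2F3, an activating E2F, read 2820 and 1755.

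**Figure D3:**
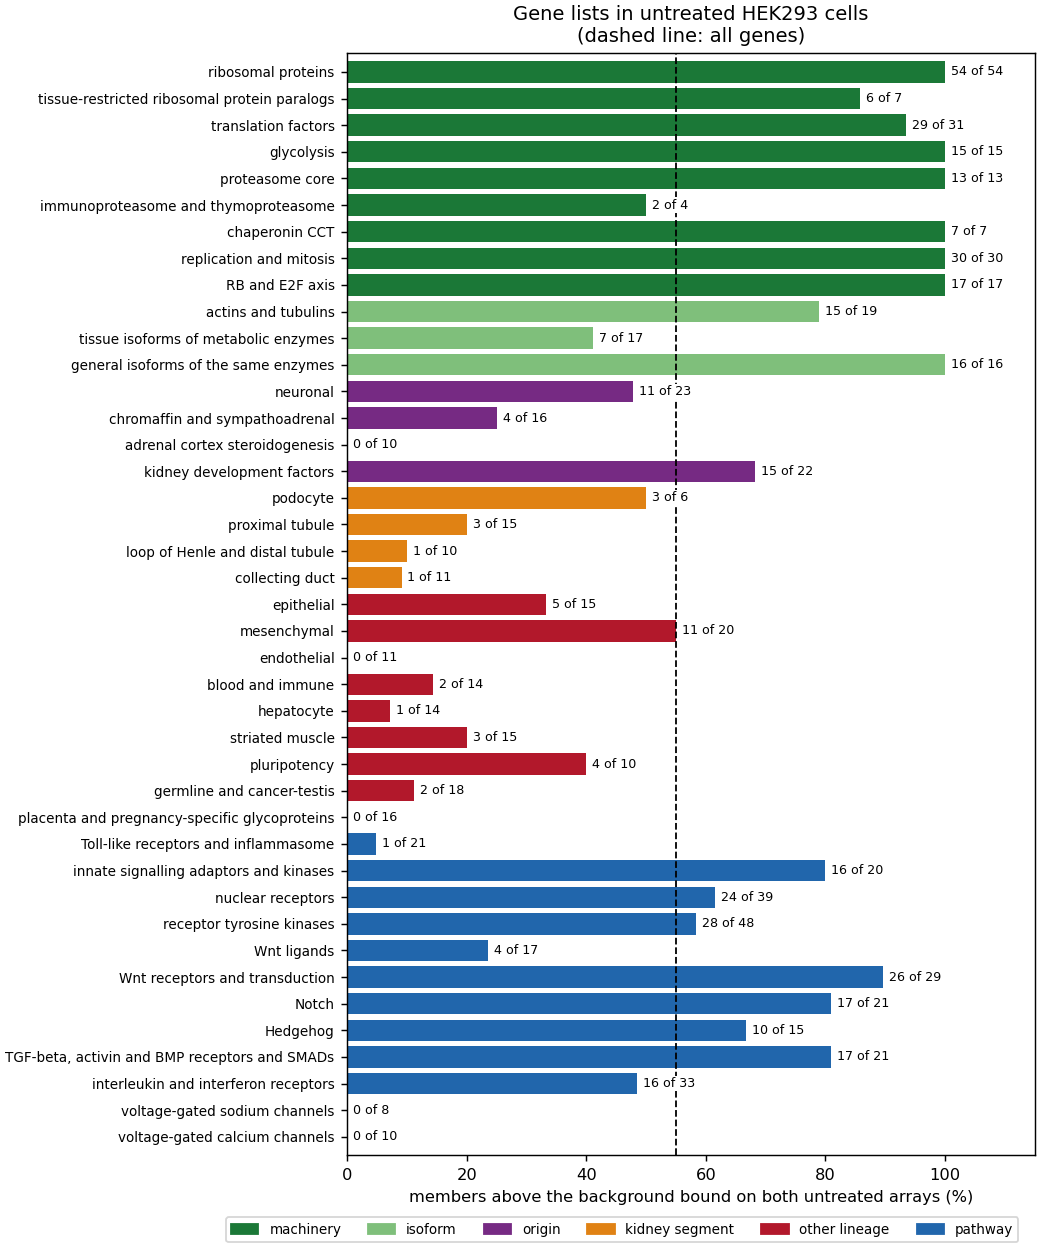
Percent of the measured members of 41 gene lists that lay above the background bound on both untreated arrays (x axis), coloured by the class of the list, with the count beside each bar. The dashed line is the share over all genes, 55.0%. Machinery lists lie at 85.7% or above except for the immunoproteasome list, kidney segment and other lineage lists mostly lie left of the line, and pathway lists lie on either side of it.

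Lineage markers were mostly not detected. Over the lists of cell lineages, kidney segments and other tissues, 66 of 246 measured genes (26.8%) were detected, against 55.0% of all genes, while the machinery lists gave 173 of 178 (97.2%). The kidney segment lists gave 8 of 42 (19.0%) and the lists of other lineages 28 of 133 (21.1%). Of the 66, 43 had more than 1 probe set, and for 9 of these every probe set was above the bound. Among genes with 1 probe set, with bounds of 93.1 and 75.9 set anew on those genes, 24 of 109 lineage members (22.0%) were detected, against 38.2% of all such genes.

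Among factors of early kidney development 15 of 22 measured (68.2%) were detected, against 55.0% of all genes. This count fell to 11 of 22 with the mean of all probe sets, where 46.1% of all genes were detected. It was 10 of 18 without shared or cross-hybridising probe sets, against 47.6% of all genes. Among genes with 1 probe set it was 6 of 10, against 38.2% of all such genes. FOXD1, the transcription factor of the stromal progenitors, read 2756 and 2988, the brightest of the list. CITED1 and SIX2, which mark the nephron progenitors of the cap mesenchyme, read 941 and 2020 and 1367 and 1222. EYA1, a phosphatase that acts as coactivator of the SIX2 family, read 1369 and 1060. BMP7, a survival signal of those progenitors, read 948 and 960. WT1, needed for kidney formation and later for podocytes, read 765 and 381 on 1 of its 2 probe sets, and the other was not detected.

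The paired-box factors were dimmer. PAX8 read 325 and 295 on 1 of 8 probe sets, and the other 7 were not detected. PAX2 read 95.1 and 136 on 1 probe set, just over the bound, and 77.3 and 18.8 on the other. The 7 factors below the bound on both arrays were OSR1, LHX1, TCF21, WNT4, WNT9B, WNT11 and GFRA1. OSR1, an early marker of intermediate mesoderm, read 2.11 and 19.3, and LHX1 read 87.5 and 8.62. FOXD1 and SIX2 mark separate progenitor pools of the embryonic kidney, and the probe set that stood for each was above the bound on both arrays.

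Markers of the mature nephron were largely at background. In the podocyte list 3 of 6 were detected, namely PTPRO, a receptor phosphatase of the filtration barrier, at 5058 and 8361 on 1 of 3 probe sets, the adaptor CD2AP at 2355 and 1883, and the sialomucin podocalyxin (PODXL) at 800 and 754. NPHS1, nephrin, the defining protein of the slit diaphragm, read 9.22 and 27.9. In the proximal tubule list 3 of 15 were detected. These were LRP2, the endocytic receptor megalin, at 384 and 175, SLC4A4, a bicarbonate transporter, at 272 and 169, and GGT1, a brush border peptidase, at 121 and 93.9.

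Of the loop of Henle and distal tubule, 1 of 10 was detected, the tight junction protein CLDN19, at 247 and 439 on 1 of 3 probe sets. Of the collecting duct, 1 of 11 was detected, the water channel AQP3, at 450 and 456 on 1 of 3 probe sets. AQP2, the vasopressin-regulated water channel of that segment, read 31.3 and 17.7 and was not detected on any of its 3 probe sets. UMOD, the marker of the thick ascending limb, was not analysed here.

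Neuronal markers were detected for 11 of 23 measured, a share of 47.8% against 55.0% of all genes. UCHL1, a ubiquitin hydrolase abundant in neurons and endocrine cells, read 7516 and 7512 on 1 of 2 probe sets. TUBB3, the neuronal class of beta-tubulin, read 5963 and 6320 on a probe set of the cross-hybridising kind. The neurofilament subunits NEFM and NEFL read 2260 and 3010 and 2079 and 2527. NEFL was above the bound on all 3 of its probe sets, and NEFM on 1 of 2. INA, the alpha-internexin of neuronal intermediate filaments, read 388 and 402, while NEFH, the heavy neurofilament subunit, read 46.9 and 32.0 and was not detected.

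The other neuronal genes detected were ELAVL2, an RNA-binding protein of neurons (963 and 1368), SYT1, the calcium sensor of synaptic vesicles (728 and 709), GAD1, the enzyme that makes GABA (575 and 416), CNTN1, an adhesion protein of axons (413 and 651), ENO2, the neuronal enolase (238 and 384), and PRPH, peripherin (132 and 363). The growth-cone and migration genes GAP43, STMN2 and DCX, the microtubule protein MAP2 and the vesicular glutamate transporters SLC17A6 and SLC17A7 were below the bound on both arrays.

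Of the chromaffin and sympathoadrenal list 4 of 16 were detected, and all 4 are transcription factors. The factors PHOX2A (65.5 and 56.0) and HAND2 (31.1 and 5.32) were not detected. ISL1 read 998 and 632, GATA2 read 449 and 818, GATA3 read 519 and 618, and HAND1 read 338 and 548. The catecholamine enzymes TH (4.01 and 44.9), DBH (12.0 and 12.9) and DDC (39.2 and 58.3) were below the bound on both arrays, and PNMT (127 and 74.6) was above it on 1. The granule proteins CHGB, SCG2 and SCG3 were also below it, while CHGA read 80.1 and 128. Of 10 genes of adrenal cortex steroidogenesis, 0 were detected, and 0 to 2 under the alternatives tried. NR5A1, the master regulator of steroidogenic cells, read 29.6 and 67.9, and CYP11A1, the first enzyme of the pathway, read 6.73 and 9.5.

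**Figure D4:**
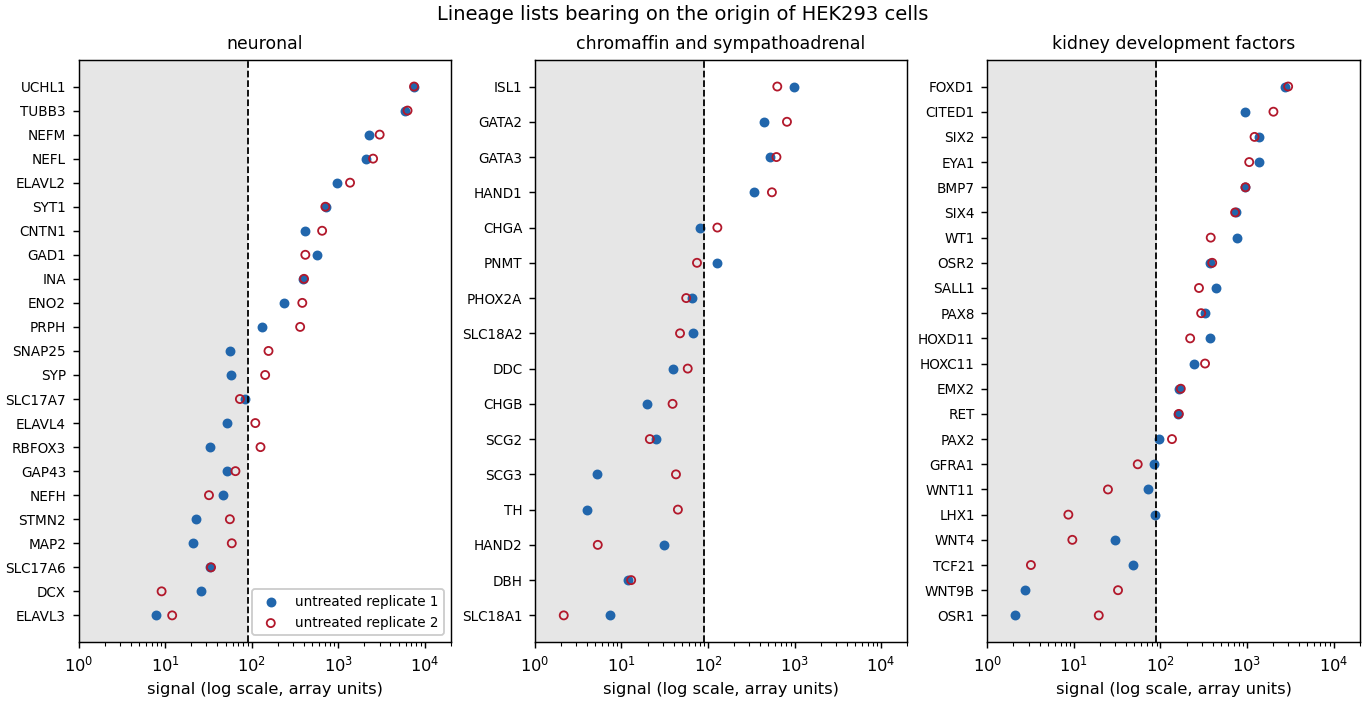
Signals of every measured member of the neuronal, chromaffin and sympathoadrenal, and kidney development lists on untreated replicate 1 (filled) and replicate 2 (open), on a log axis in array units. The shaded area lies below the lower of the 2 background bounds and the dashed line is their mean. Kidney development factors lie to the right of the line in 15 of 22 cases, neuronal genes in 11 of 23 and chromaffin genes in 4 of 16, on both arrays.

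Mesenchymal genes were detected for 11 of 20 (55.0%) and epithelial genes for 5 of 15 (33.3%), against 55.0% of all genes. With the mean of all probe sets the mesenchymal count was 7 of 20 (35.0%), below the 46.1% of all genes. Without shared or cross-hybridising probe sets the mesenchymal count was 7 of 16 (43.8%), against 47.6% of all genes. The epithelial count was then 1 of 10. VIM, the intermediate filament of mesenchymal and cultured cells, read 26882 and 30202 on the brighter of its 2 probe sets. SNAI2 and ZEB1, repressors of epithelial genes, read 3957 and 3664 and 2109 and 2680. CDH2, N-cadherin, read 1129 and 812, and COL1A1, a chain of type I collagen, read 991 and 1103. COL1A2, its partner chain, read 39.5 and 54.3 and was not detected, nor were PDGFRA, PDGFRB, THY1, LUM, DCN and POSTN, which mark fibroblasts and pericytes.

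On the epithelial side, OCLN, a tight junction protein, read 2535 and 2416, and KRT18, a keratin of simple epithelia, read 2519 and 2836. Its partner KRT8 read 209 and 229, and the surface protein EPCAM read 251 and 287. CDH1, E-cadherin, read 266 and 250 on 1 probe set and 1.69 and 7.18 on the other. The epithelial splicing factor ESRP1, the factor GRHL2 and the claudins CLDN4 and CLDN7 were below the bound on both arrays.

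Lists of more distant lineages gave few detected members. With the mean of all probe sets, 0 of 14 blood and immune, 0 of 14 hepatocyte and 1 of 15 striated muscle genes were detected, against 46.1% of all genes. Of 11 endothelial genes 0 were detected, and 0 or 1 under the alternatives tried. Of 16 placental genes, pregnancy-specific glycoproteins among them, 0 were detected, and 0 to 3 under the alternatives. Of 14 blood and immune genes 2 were detected, CD79A of the B cell receptor (293 and 183, 1 of 2 probe sets) and the integrin ITGAM (107 and 89.5, at the bound). The pan-leukocyte phosphatase PTPRC read 27.3 and 45.8. Of 14 hepatocyte genes 1 was detected, CYP3A4, at 213 and 194 on 1 of 5 probe sets, while ALB, albumin, read 14.3 and 47.4.

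Of 15 genes of striated muscle 3 were detected, and the myogenic factors MYOD1, MYOG, MYF5 and MYF6 were not among them. TNNI3, cardiac troponin I, read 593 and 617 on its only probe set. TTN, titin, read 173 and 148 on 1 of 6 probe sets, and TNNT3, a fast troponin T, read 158 and 118 on 1 of 2. Of 18 germline and cancer-testis genes 2 were detected, PRAME at 909 and 1025 and MAGEB2 at 380 and 307. Of the detected members of these distant lineages, CD79A, ITGAM, CYP3A4, TTN and TNNT3 rest on 1 of several probe sets. TNNI3, PRAME and MAGEB2 have only 1. The pooled lists of other lineages also hold the epithelial, mesenchymal and pluripotency lists. Over that pool, every probe set was above the bound for 1 of 18 detected genes with more than 1 probe set.

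Of 10 pluripotency genes 4 were detected, and 2 of the 8 that remained without shared or cross-hybridising probe sets, against 47.6% of all genes. LIN28B, which blocks maturation of let-7 microRNAs, read 7862 and 9889, while its paralog LIN28A read 12.5 and 80.9. DNMT3B, a DNA methyltransferase of early embryos, read 2380 and 2160. KLF4 read 395 and 517, while its other probe set read 77.0 and 53.6 and was not detected. SOX2, a factor of pluripotent and neural progenitor cells, read 394 and 443 on 1 of 4 probe sets. NANOG, at 6.05 and 45.9, was not detected, nor was ZFP42. POU5F1 was not analysed here.

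Over the pathway lists, detection gave 159 of 282 measured genes (56.4%), close to the 55.0% of all genes. In the Wnt pathway 4 of 17 ligands and 26 of 29 receptors and transducers were detected. With the mean of all probe sets the counts were 2 of 17 and 21 of 29, against 46.1% of all genes. WNT5A, a ligand of the non-canonical branch, read 1227 and 908, WNT6 read 216 and 220, WNT10B read 170 and 194, and WNT2B read 119 and 89.5. Downstream, CTNNB1, beta-catenin, read 15690 and 13096, CSNK1A1, a kinase of its destruction complex, read 8435 and 7954, TCF7L2, its DNA-binding partner, read 4828 and 2823, and the scaffold DVL2 read 2091 and 1629. The 3 not detected were FZD10, LRP5 and LGR6, while LRP6, the paralog of LRP5, read 1454 and 880.

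Notch genes were detected for 17 of 21. With the mean of all probe sets of a gene the count was 8 of 21 (38.1%), below the 46.1% of all genes in that setting. Without shared or cross-hybridising probe sets it was 8 of 15 (53.3%), against 47.6% of all genes. Among genes with 1 probe set it was 2 of 4, against 38.2% of all such genes. The place of this list against all genes thus depended on the setting. HEY1, a repressor induced by Notch signalling, read 18242 and 19540, and its second probe set read 12386 and 13429. RBPJ, the DNA-binding protein of the pathway, read 4321 and 4529, NOTCH2 read 4417 and 2493, and the coactivator MAML1 read 2469 and 1501. HES1, another target, read 834 and 1943 on its brightest probe set, more than 2-fold apart between the arrays, and 565 and 705 on another. The ligand DLL4, an endothelial Notch ligand, read 21.1 and 17.9 and was not detected.

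In the Hedgehog pathway 10 of 15 were detected, and 4 of 15 (26.7%) with the mean of all probe sets, again below the 46.1% of all genes. Without shared or cross-hybridising probe sets the count was 8 of 15 (53.3%), against 47.6% of all genes. Among genes with 1 probe set it was 2 of 5, against 38.2% of all such genes. The coreceptor GAS1 read 4076 and 3049, the receptor PTCH1 read 997 and 816, and the factors GLI3 and GLI2 read 795 and 471 and 379 and 239. The ligands SHH, IHH and DHH were below the bound on both arrays, and the target gene GLI1 read 93.4 and 15.3. Of the TGF-beta, activin and BMP receptors and SMADs 17 of 21 were detected, with SMAD5 at 4214 and 4186, SMAD9 at 2224 and 2312, TGFBR1 at 2516 and 1977, and ACVR2B at 1975 and 1346. The undetected members included ACVRL1, the receptor of endothelial cells, and AMHR2, the receptor for anti-Müllerian hormone.

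Receptor tyrosine kinases were detected for 28 of 48 and nuclear receptors for 24 of 39. With the mean of all probe sets the counts were 19 (39.6%) and 13 (33.3%), below the 46.1% of all genes. Without shared or cross-hybridising probe sets 16 of 39 receptor tyrosine kinases were detected. MET, the hepatocyte growth factor receptor, read 2985 and 2376 on 1 of 4 probe sets, and RYK, a Wnt-binding pseudokinase, read 2274 and 2118, with all 3 of its probe sets above the bound. FGFR3 read 1370 and 1271, and the ephrin receptor EPHA7 read 1420 and 1046. Among nuclear receptors NR2F1 read 3013 and 1428, NR2F6 read 1594 and 1964, NR2C1 read 1256 and 1331, and the glucocorticoid receptor NR3C1 read 1066 and 1191. The oestrogen receptors ESR1 (30.3 and 62.1 on the brightest of 9 probe sets) and ESR2, and the progesterone receptor PGR, were below the bound on both arrays. LPAR1, a receptor for the ligand used in the study, read 237 and 248, and 2 of its 3 probe sets were above the bound on both arrays.

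Among innate immune genes, few sensors but most transducers were detected. Of 21 Toll-like receptors and inflammasome genes 1 was detected, MEFV (pyrin, 167 and 103), and 0 to 2 under the alternatives tried. TLR2 read 5.92 and 4.68, TLR3 read 37.7 and 62.1 and TLR4 read 43.0 and 32.5. The adaptor of inflammasomes, PYCARD, read 4.68 and 3.88. Of 20 adaptors and kinases downstream 16 were detected, led by the kinases IRAK1 (10398 and 7292), CHUK (2064 and 2361) and TBK1 (1499 and 1809) and the adaptor TAB2 (2073 and 1516). Without shared or cross-hybridising probe sets 9 of 14 adaptors and kinases were detected, against 47.6% of all genes. MYD88, the main Toll-like receptor adaptor, read 90.2 and 144 and passed the bound on 1 array.

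Interleukin and interferon receptors were detected for 16 of 33 (48.5%), near the 55.0% of all genes. With the mean of all probe sets the count was 12 of 33 (36.4%), against 46.1% of all genes. Without shared or cross-hybridising probe sets it was 15 of 32 (46.9%), against 47.6% of all genes. Among genes with 1 probe set it was 5 of 12 (41.7%), against 38.2% of all such genes. The list thus did not lie below all genes in every setting. IFNGR1 and IFNGR2, the chains of the interferon gamma receptor, read 3576 and 4527 and 2461 and 1558. IL6ST, the shared receptor chain gp130, read 3062 and 3729, and IFNAR2 read 1030 and 1051. The lymphoid and myeloid chains IL2RA, IL2RB, IL2RG, IL3RA, CSF2RB and IL7R were below the bound on both arrays. Of 8 voltage-gated sodium channel subunits and 10 calcium channel subunits, 0 were detected, and 0 or 1 of each under the alternatives tried.

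The sequence around the start site also differed between the signal classes. RefSeq windows of 300 bases, 250 before and 50 after the most upstream listed start, were matched by symbol for 15384 of the 19775 genes. The observed over expected CpG count (the number of CpG dinucleotides divided by that implied by the C and G content) had a median of 0.372 for genes below the bound on both arrays, 0.662 for those above it on 1, and 0.854 for detected genes. Within detected genes it was 0.826 under a signal of 1000, 0.878 from 1000 to 10000 and 0.889 at 10000 or more. A ratio over 0.6 was found in 86.1% of detected genes and in 35.7% of those below the bound. Windows and genes are not replicates, and these are descriptions.

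The promoters below illustrate this difference with genes named above or from the same lists. Each is the 120 bases before the start on the strand of the gene, in GRCh38.p14 of RefSeq. Capitals mark the CCAAT box (CCAAT), the TATA box (TATAAA) and the GC box (GGGCGG), searched on both strands. The same motifs on the opposite strand appear as their reverse complements, and neighbouring motifs can overlap. CCNB2 (a mitotic cyclin), PCNA and UCHL1 were detected, while FGB, CKM and CGA (the alpha chain of chorionic gonadotropin) were not.
CCNB2, chr15:59105026-59105145, plus strand: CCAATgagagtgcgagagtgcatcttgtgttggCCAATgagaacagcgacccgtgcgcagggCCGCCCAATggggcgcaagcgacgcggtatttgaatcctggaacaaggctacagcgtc
PCNA, chr20:5126623-5126742, minus strand: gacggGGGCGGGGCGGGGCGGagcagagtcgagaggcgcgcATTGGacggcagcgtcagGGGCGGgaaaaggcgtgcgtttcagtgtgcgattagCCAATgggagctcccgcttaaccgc
UCHL1, chr4:41256808-41256927, plus strand: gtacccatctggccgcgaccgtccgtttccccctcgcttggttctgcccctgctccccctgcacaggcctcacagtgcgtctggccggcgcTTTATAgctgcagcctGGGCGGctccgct
FGB, chr4:154562860-154562979, plus strand: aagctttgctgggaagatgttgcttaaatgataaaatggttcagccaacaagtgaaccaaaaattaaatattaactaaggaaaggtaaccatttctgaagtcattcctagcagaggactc
CKM, chr19:45322876-45322995, minus strand: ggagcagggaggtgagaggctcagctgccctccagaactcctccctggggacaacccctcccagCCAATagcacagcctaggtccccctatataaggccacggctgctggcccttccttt
CGA, chr6:87095107-87095226, minus strand: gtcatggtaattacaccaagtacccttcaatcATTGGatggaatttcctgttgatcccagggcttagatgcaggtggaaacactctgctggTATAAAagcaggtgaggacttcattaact

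The 3 promoters of detected genes held 10 (CCNB2), 15 (PCNA) and 10 (UCHL1) CpG dinucleotides in these 120 bases, and those of FGB, CKM and CGA held 0, 1 and 0. In the 300-base windows the observed over expected ratio was 0.941 (CCNB2), 0.97 (PCNA) and 0.87 (UCHL1). It was 0 for FGB, 0.161 for CKM and 0.447 for CGA. The CGA ratio was above the median of 0.372 for genes below the bound. Over whole windows, TATAAA on either strand was found in 14.7% of genes below the bound and 5.11% of detected genes, against 8.76% of all genes. CCGGAA, the core bound by ETS factors, was found in 11.2% and 30.9%, and GGGCGG, the GC box, in 37.7% and 71.7%. CCAAT was found in similar shares, 34.9% and 37.4%, but in 19 of 24 genes of the replication and mitosis list (79.2%), against 36.1% of all genes. A match is a run of letters and does not show that a factor binds there.

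A start of C followed by 4 pyrimidines, counted on the sense strand at the annotated start, was found for 34 of 48 ribosomal protein genes (70.8%) and 9 of 23 translation factor genes (39.1%). Over all matched genes the share was 4.50%, and over all promoters of the table it was 4.04%. Among genes of 10000 or more it was 16.5%, and 10.4% with ribosomal protein and translation factor genes left out. No such start was found for the 15 glycolysis genes or the 9 proteasome genes with a window. The annotated start can differ from the start used in these cells.

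**Figure D5:**
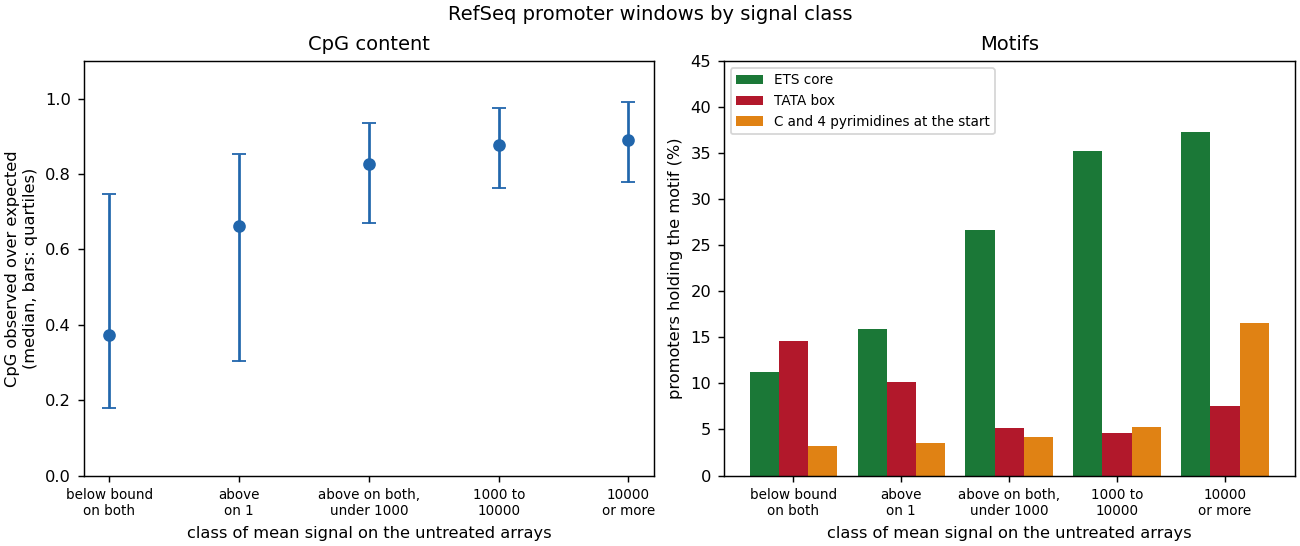
RefSeq promoter windows of 300 bases by class of mean signal on the untreated arrays. The left panel gives the median observed over expected CpG ratio with quartile bars, and the right panel the percent of windows with the ETS core, the TATA box or C and 4 pyrimidines at the annotated start. The CpG ratio is lowest below the bound (0.372) and the TATA box is most frequent there (14.7%), while the pyrimidine start is most frequent at 10000 or more (16.5%).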

How the data were processed

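The authors deposited a linear intensity for every probe set of each array, computed by MAS5, per the submitters' processing notes. Its version is not given in the sources used here. The mean after trimming 2% at either end was 500.1 on both untreated arrays, so the authors had scaled each array, and nothing further was normalized. The labels' protocols cite a whole-transcript labelling manual, while the probe sets target 3′ ends, so which labelling was used is not settled.

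Of 54675 probe sets, 41097 list 1 symbol, 1801 several and 11777 none, and 41043 symbols were looked up by Entrez identifier with 0 changed. Spike controls read 989 to 1701 for BioB (6 probe sets) and 1.24 to 41.2 for TrpnX (3 probe sets, expected absent). The untreated arrays shared 0 identical values.

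With 1 group there is no test. The members and the 41 lists (819 genes, 733 measured) were chosen with earlier results of these data known. Named genes were the 30 brightest, up to 4 brightest of each list, all detected members of lineage lists with few detected, and a set of marker genes whatever their value. Other members below the bound, and genes that differed between the arrays, were named for their role after their values were seen. The code for the bound was run on simulated arrays in which olfactory receptor genes and all other unexpressed genes shared 1 background. No choice among probe sets was simulated. Such a run cannot show how often the bound errs on the real arrays. Calculations used Python 3.11.15, numpy 2.4.6, pandas 2.3.3 and matplotlib 3.10.9. Alternatives changed the bound, the probe set, the pseudocount (64 in place of 1), the normalization and the arrays.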

Additional observations from a re-analysis of the deposited data

Results flagged for a closer look

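Probe sets without a gene symbol lie outside the genes described above. Of 11777 such probe sets 56 are controls. Of the other 11721, 2340 (19.96%) were above the background bound on both untreated arrays, a signal in data that the description does not use. The brightest of them had a mean signal of 87351. Counted in the same way per probe set, those that list several symbols were above it in 939 of 1801 cases (52.1%) and those with 1 symbol in 19217 of 41097 (46.8%).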

How the results depend on the processing

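The number of detected genes, 10871, was 8144 to 11237 under the other bounds, quantile normalization, the mean of all probe sets, the omission of shared probe sets and a pseudocount of 64, and 11166 on the 2 LPA arrays, where 95.6% of genes had the same call. The 66 detected lineage members, of 246 measured (26.8%), became 44 to 72 under the former and 68 under the latter. The lowest counts, 8144 and 44, came from the omission of shared probe sets. It left 17100 genes and 199 lineage members measured, of which 47.6% and 22.1% were detected. On 1 array alone, 11354 to 11479 genes and 75 to 78 lineage members were detected, and 50 to 50 of the 100 brightest genes were ribosomal proteins. The analysis of genes with 1 probe set only, chosen after seeing the data, gave 3530 of 9252 genes, 24 lineage members and 19 ribosomal proteins among the 100 brightest. The last count was 29 with the mean of all probe sets and 11 without shared or cross-hybridising ones, with 50 in the primary analysis. The correlation of 0.937 was 0.982 with a pseudocount of 64 and 0.978 for detected genes. The difference in median CpG ratio between detected genes and genes below the bound, 0.482, was 0.4815 over the 100 bases around the start, 0.465 with the 99th percentile as bound and 0.509 for genes with 1 listed start, the last chosen after seeing the data. Counts of 37 of 41 lists moved by over 1.5 times, or to or from 0, under at least 1 of 12 settings, most often where fewer genes were measured. Between the 90th and 99th percentile bounds lay 804 genes, and their calls depend on the bound. No paired analysis was possible because 1 group was described and no test was made. The cause of each shift was not tested where the setting did not itself remove genes.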

Other observations

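Gene families defined by the start of their symbols, chosen after the data were seen, ranged from detection of nearly all members to none. Nuclear-encoded mitochondrial ribosomal proteins (MRPL and MRPS symbols) were detected for 76 of 77 genes, led by MRPL3 at 23066 and 22160, and complex I genes (NDUF symbols) for 43 of 44, led by NDUFAB1 at 32330 and 28881. HOX genes, which set position along the body axis, were detected for 23 of 28, led by HOXC6 at 3643 and 2817. Zinc finger genes (ZNF symbols) were detected for 300 of 502 (59.8%) and solute carriers for 187 of 349 (53.6%), near the 55.0% of all genes.

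Families of specialised tissues lay mostly at background. Keratin-associated proteins were detected for 0 of 34, chemokines for 0 of 34, beta defensins for 0 of 14, keratins for 4 of 42, bitter taste receptors for 1 of 18, protocadherins for 6 of 48, potassium channels for 16 of 97 and cytochromes P450 for 12 of 47. Keratin detection was led by KRT10, at 3617 and 3350. Long intergenic RNAs (LINC symbols) were detected for 69 of 840 (8.21%), and the brightest, LINC00621, read 3824 and 3539. No array of another cell type was used, so whether any of these shares is particular to HEK293 cannot be told.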
